A study of Mus musculus with 9 samples.

Results

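The proteasome is the protease that degrades ubiquitin-tagged proteins, and its subunit genes were followed here in mouse liver by RNA sequencing. The members were the protein-coding genes present in both deposited tables whose symbols begin with Psma, Psmb, Psmc, Psmd, Psme or Psmf and a number, with at most 1 further letter, plus Pomp. This gave 45 of the 16266 genes in both tables. The members were chosen by name and not by any measured value, though earlier results of these data were known. Wild-type mice had received, through the tail vein, an adeno-associated virus of serotype 8 carrying either Mettl3 or an empty cloning site, each with a FLAG tag, behind the hepatocyte promoter TBG. Mettl3 encodes the catalytic subunit of the main writer of N6-methyladenosine in mRNA. After 3 weeks the mice received the diets for 10 days and then a single binge. The 3 groups had 3 libraries each: Mettl3 virus and ethanol diet (Mettl3 livers), control virus and ethanol diet (ethanol-fed control livers), and control virus and control diet (pair-fed livers). Ethanol-fed mice ended on an ethanol binge and pair-fed mice on a maltose binge, so every animal carried a virus and received a binge. The sample titles call the control-virus groups WT and the Mettl3-virus group Mettl3OE. There was no pair-fed group with the Mettl3 virus. The labels give neither age nor sex and do not say that replicates were separate mice, so p-values measure the spread between these libraries.

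As background, the 20S core is a barrel of alpha rings, which gate entry, around beta rings, which hold the proteolytic sites of Psmb6 (caspase-like), Psmb7 (trypsin-like) and Psmb5 (chymotrypsin-like). Interferon-induced cells replace these by Psmb9, Psmb10 and Psmb8 to form the immunoproteasome, which shapes peptides for MHC class I molecules and is abundant in immune cells. The 19S cap, built of ATPases (Psmc) and non-ATPases (Psmd), recognises and unfolds ubiquitinated proteins, while the Psme caps open the barrel without ubiquitin. In liver, proteasome activity is a known target of ethanol, mainly from work in rodents.

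The libraries held 34656256 to 38159563 reads on listed genes. Values are FPKM, which divides reads by transcript length and by the total of the library, so that levels can be compared between genes. Mettl3 itself, the gene carried by the virus, had 38.5, 24.98 and 33.3 FPKM in Mettl3 livers, 5.44, 4.86 and 3.78 FPKM in ethanol-fed control livers, and 3.97, 3.10 and 3.38 FPKM in pair-fed livers, above the other groups in every library. The 10 hepatocyte markers, among them Alb and Apoa1, summed to 59430 to 66960 FPKM in Mettl3 livers, 60880 to 73950 FPKM in ethanol-fed control livers, and 62600 to 70430 FPKM in pair-fed livers. Alb made up most of each sum, so the sums say little about the other markers. It had 30110 to 37320 FPKM in Mettl3 livers, 35150 to 47900 FPKM in ethanol-fed control livers and 42140 to 45950 FPKM in pair-fed livers. The 8 neutrophil markers set 1 library apart. They summed to 9.36 FPKM in ethanol-fed control liver 1, against 68.97 and 75.8 FPKM in the other ethanol-fed control livers.

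Nearly all members were expressed. Psma8, the testis form of an alpha subunit, lay at a mean of 0.269 FPKM over the 9 libraries, below the filter of 1 FPKM in at least 3 libraries, and was not tested. The other 44 passed. Pomp, the chaperone that matures the 20S core, was highest at a mean of 100.2 FPKM. The 31 subunits of the core and the 19S cap, which are needed in fixed proportion, ranged on the level scale from 21.9 FPKM for Psma3 to 90.3 FPKM for Psmb7. This range depends on the transcript lengths that FPKM divides by. Psma3 had 2428 to 3013 reads per library, while Psma1, at a mean of 50.3 FPKM, had 2040 to 2629. The immunoproteasome subunits were far lower, from 5.46 FPKM for Psmb9 to 14.8 FPKM for Psmb8. Psmd10, a 19S assembly chaperone, averaged 5.46 FPKM, and Psmf1, which encodes the inhibitor PI31, 4.85 FPKM. Among the 44 tested members the coefficient of variation across the 9 libraries was highest for the interferon-inducible Psme1 (28.1%), Psmb10 (26.4%) and Psmb9 (25.4%). It was 20.2% for Psme2b, 19.3% for Psmd14, 16.2% for Psme2 and 14.9% for Psmb8, against 4.42% for Psmd12 and 4.83% for Pomp. Summed over all 45 members the levels were 1906, 1981 and 1964 FPKM in Mettl3 livers, 1806, 1764 and 1806 FPKM in ethanol-fed control livers, and 1992, 1907 and 1997 FPKM in pair-fed livers. On the FPKM scale the sums of the Mettl3 livers and of the pair-fed livers overlapped, and those of the ethanol-fed control livers lay below both. This order depends on the scale. The factors that median-ratio scaling, used below, divides by were 0.863 to 1.002 in Mettl3 livers, 0.9032 to 1.069 in ethanol-fed control livers and 1.101 to 1.134 in pair-fed livers.

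**Figure D1:**
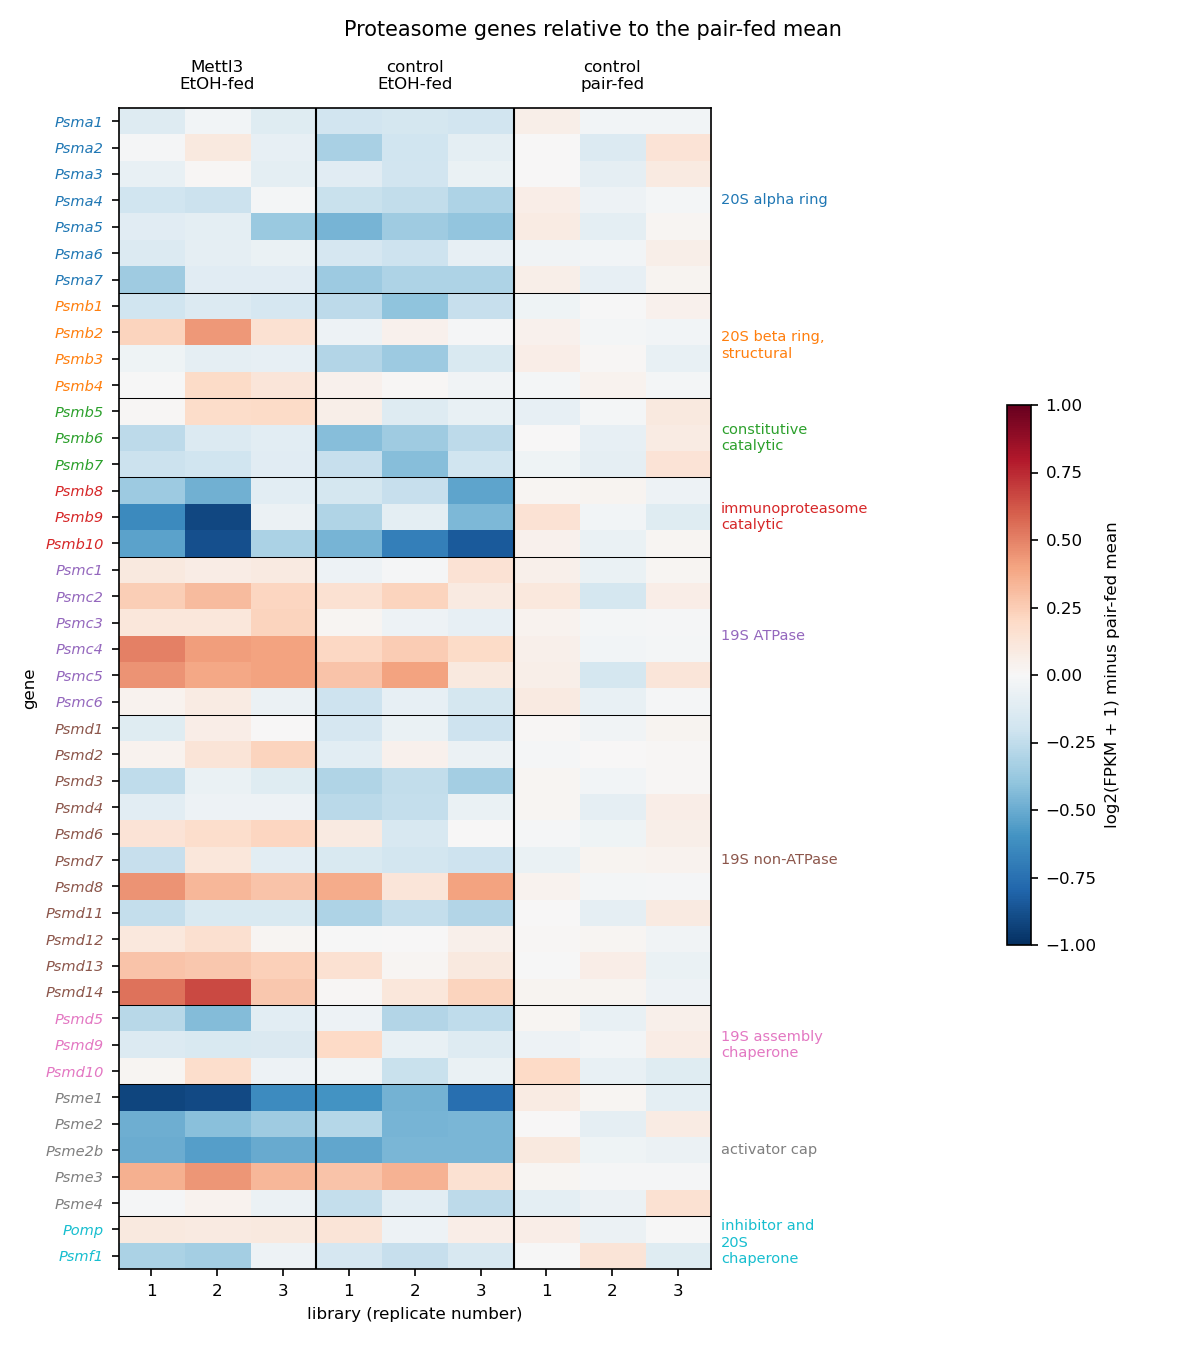
Level of the 44 tested proteasome genes in each library, as log2(FPKM + 1) minus the mean of the 3 pair-fed libraries, grouped by role; columns are the libraries of the Mettl3, ethanol-fed control and pair-fed groups. Psmb10 and Psme1 are blue in all 6 ethanol-fed libraries, and Psmc4, Psmd8 and Psme3 are red in all 6.

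The promoter windows of 3 members are shown because each holds a match to the letters of a control element usually discussed for these genes. Whether any protein binds these matches was not tested. Psmb5 is a gene of the constitutive core, and Psmb8 and Psme1 are interferon-inducible members. They were picked for their matches and do not represent the other members. Each window runs from 250 bases before to 49 bases after the first transcribed base on the gene's own strand, 5′ to 3′, from RefSeq on GRCm38.p6. Psmb5 lies at chr14:54617946-54618245 (minus strand), Psmb8 at chr17:34197945-34198244 (plus strand) and Psme1 at chr14:55578244-55578543 (plus strand). Capitals mark the motif match.
Psmb5: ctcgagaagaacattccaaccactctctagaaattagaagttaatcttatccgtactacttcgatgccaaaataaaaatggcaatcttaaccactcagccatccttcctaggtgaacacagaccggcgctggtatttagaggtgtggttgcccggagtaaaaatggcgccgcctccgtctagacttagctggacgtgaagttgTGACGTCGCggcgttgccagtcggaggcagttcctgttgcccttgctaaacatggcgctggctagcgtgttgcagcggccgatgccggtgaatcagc
Psmb8: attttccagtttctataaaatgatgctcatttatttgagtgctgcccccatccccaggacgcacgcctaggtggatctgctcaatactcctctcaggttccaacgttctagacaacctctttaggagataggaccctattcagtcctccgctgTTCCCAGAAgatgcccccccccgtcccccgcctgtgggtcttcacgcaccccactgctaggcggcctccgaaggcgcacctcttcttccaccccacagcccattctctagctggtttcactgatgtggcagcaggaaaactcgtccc
Psme1: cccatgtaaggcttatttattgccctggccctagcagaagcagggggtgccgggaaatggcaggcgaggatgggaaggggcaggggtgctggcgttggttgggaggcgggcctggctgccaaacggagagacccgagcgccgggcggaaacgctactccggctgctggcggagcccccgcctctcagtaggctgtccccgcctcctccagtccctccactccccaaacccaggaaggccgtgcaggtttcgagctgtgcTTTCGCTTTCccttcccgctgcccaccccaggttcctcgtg
In Psmb5 the capitals are TGACGTCGC, a match to TGACNNNGC, the element read by the transcription factors NRF1 (gene Nfe2l1) and NRF2 (gene Nfe2l2), beginning 47 bases before the start. Psmb8 has TTCCCAGAA, a match to the STAT-binding GAS element TTCNNNGAA, beginning 97 bases before the start. Psme1 has TTTCGCTTTC, the reverse complement of a match to the interferon-stimulated element, which is GAAA, any 2 bases and GAAA again, beginning 9 bases after the start. Both strands were searched in the 38 members with a window. TGACNNNGC was found in 6 of them (Psmb5, Psmb6, Psmc6, Psmd12, Psmd9 and Psme4) and in 14% of all 27025 genes with a window. The interferon-stimulated element was found in 4 (Psmb3, Psmd4, Psmd9 and Psme1) and in 3.99% of all genes, and TTCNNNGAA in 2 (Psmb8 and Psmd2) and in 9.55% of all genes. No matches overlapped in a member. The windows of Psmb9 and Psmb10 held none of these letters. No window was given for Psmb1, Psmb2, Psmb7, Psmc3, Psmd3, Psmd7 and Psma8.

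Ethanol feeding was addressed by comparing the ethanol-fed control livers with the pair-fed livers. On the FPKM scale 11 of the 44 members tested (25%) fell and 0 rose, with limma's moderated test on log2(FPKM + 1) and a Benjamini-Hochberg adjusted p under 0.05. Of all 10064 genes tested, 26.0% fell and 10.0% rose, so the share of members that fell was near the background. The median log2 fold change was -0.17 over the members and -0.14 over all genes. Every ethanol-fed control liver lay below every pair-fed liver for 21 members (47.7%, against 37.2% of all genes), and above for 3, namely Psmc4, Psmd8 and Psme3 (6.82%, against 15.4% of all genes). Scaling by the median ratio of libraries moved the median of all genes to 0.01. On that scale 4 members rose (9.09%, against 17.6% of all genes) and 2 fell (4.55%, against 16.7% of all genes). Psme1 and Psmb10 fell on both scales, whereas Psmc4, Psmc5, Psmd8 and Psme3 passed the test after median-ratio scaling and not on the FPKM scale. The authors' deposited table, over 16842 genes, has the same 6 members under a q-value of 0.05, with 4 higher and 2 lower, against 14.0% of all its genes higher and 12.6% lower. Leaving out a library moved the number of members that fell on the FPKM scale. It was 12 without ethanol-fed control liver 1, 4 without ethanol-fed control liver 2, 7 without ethanol-fed control liver 3, and 3, 4 and 3 without pair-fed livers 1, 2 and 3. Without ethanol-fed control liver 2, 1 member rose, Psmd8 (0.39, adjusted p = 0.0273), and without ethanol-fed control liver 3, 1 rose, Psme3 (0.32, adjusted p = 0.0434). Psme1, Psmb10 and Psme2b were called in each of the 6 fits that left out a library.

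**Figure D2:**
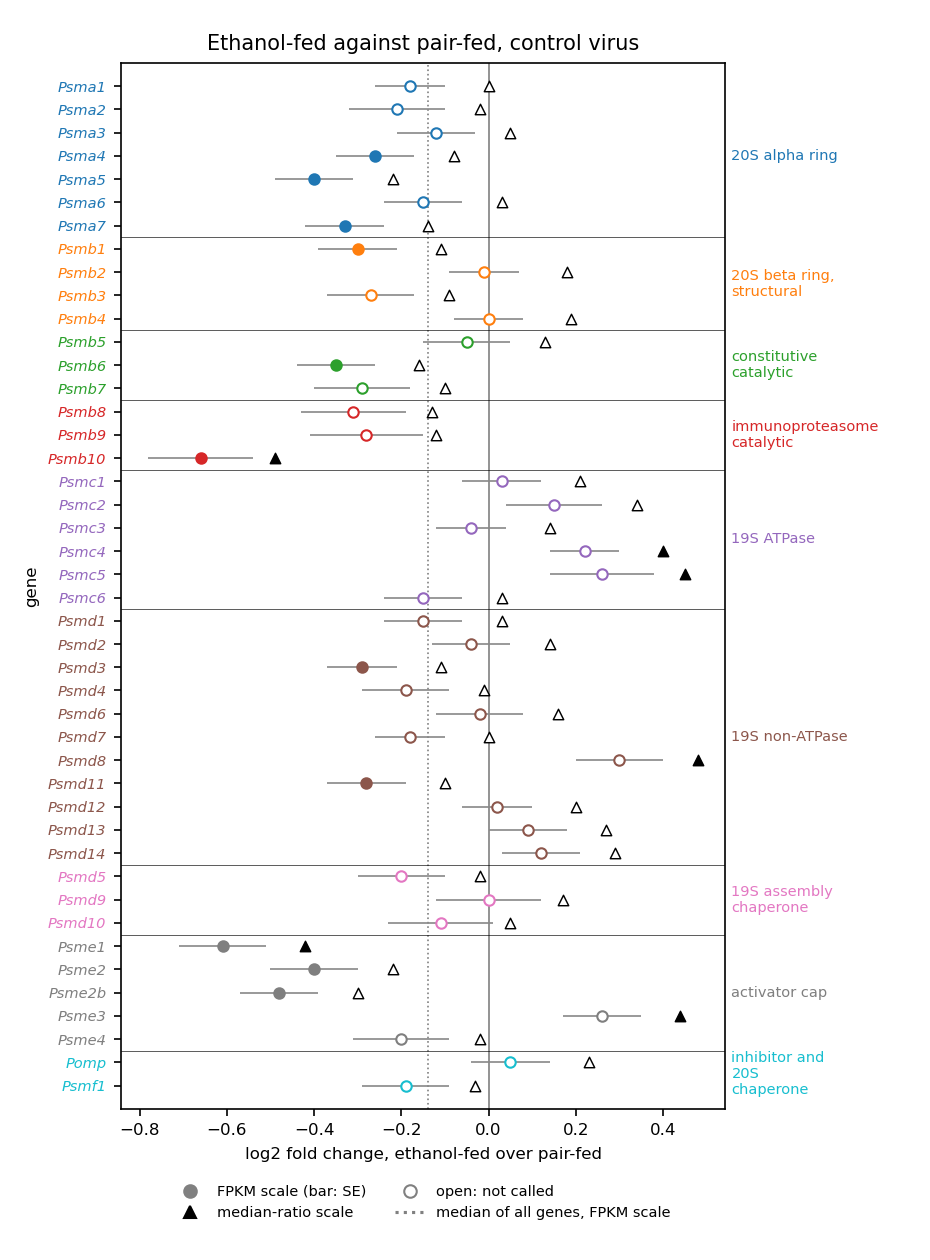
log2 fold change of each member, ethanol-fed control over pair-fed livers, with its SE on the FPKM scale (circles) and after median-ratio scaling (triangles); filled symbols passed the adjusted p threshold of 0.05 and the dotted line is the median of all genes on the FPKM scale. The alpha ring lies left of 0 for all 7 genes on the FPKM scale, and Psme1 and Psmb10 are filled on both scales.

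The alpha ring, which forms the gate of the core, had 3 of 7 tested genes lower (26.0% of all genes) and none above 0 (35.3% of all genes) on the FPKM scale, with a median log2 fold change of -0.21. On the median-ratio scale none of the 7 was called and their median was -0.02. Psma5 had 31.4, 31.9 and 26.2 FPKM in Mettl3 livers, 24.5, 26.4 and 25.6 FPKM in ethanol-fed control livers, and 36.1, 31.7 and 34.5 FPKM in pair-fed livers. It fell, with a log2 fold change of -0.40 (SE 0.09, adjusted p = 0.0149), and the ethanol-fed control and pair-fed libraries did not overlap. Psma7 had 35.3, 41.9 and 41.8 FPKM in Mettl3 livers, 35.1, 36.4 and 36.6 FPKM in ethanol-fed control livers, and 47.4, 42.8 and 46.2 FPKM in pair-fed livers, and Psma4 had 82.8, 82.1 and 94.02 FPKM in Mettl3 livers, 81.9, 80.1 and 76.8 FPKM in ethanol-fed control livers, and 100.1, 92.1 and 94.3 FPKM in pair-fed livers. Both were lower in all 3 ethanol-fed control livers than in any pair-fed liver, with log2 fold changes of -0.33 (SE 0.09, adjusted p = 0.0252) for Psma7 and -0.26 (SE 0.09, adjusted p = 0.0487) for Psma4. Psma4 lost its call without any library other than ethanol-fed control liver 1, and its adjusted p then lay between 0.0904 and 0.173. Psma7 lost its call without ethanol-fed control liver 2 or any pair-fed liver (adjusted p of 0.0532 to 0.0989), and Psma5 without pair-fed liver 1 or 3 (0.0642 and 0.0648). Psma1, Psma2, Psma3 and Psma6 did not pass, with log2 fold changes of -0.18, -0.21, -0.12 and -0.15.

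Among the structural beta subunits, which carry no active site of their own, Psmb1 fell and Psmb2, Psmb3 and Psmb4 were not called. Psmb1 had 85.7, 89.4 and 87.8 FPKM in Mettl3 livers, 82.3, 74.2 and 84.04 FPKM in ethanol-fed control livers, and 95.9, 98.4 and 102 FPKM in pair-fed livers, with a log2 fold change of -0.30 (SE 0.09, adjusted p = 0.0384). Its ethanol-fed control libraries all lay below the pair-fed ones, but it passed in only 1 of the 6 fits that left out a library, the one without ethanol-fed control liver 1 (adjusted p of 0.0512 to 0.129 in the others). Psmb1 did not pass on the median-ratio scale (-0.11, adjusted p = 0.445). Psmb3 had a log2 fold change of -0.27 (SE 0.10, adjusted p = 0.0604) with non-overlapping libraries, and it passed without ethanol-fed control liver 3 (-0.33, adjusted p = 0.0494). Psmb2 and Psmb4 lay at -0.01 and 0.00, with overlapping libraries.

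Of the constitutive catalytic subunits only Psmb6 was called under ethanol. Psmb6 had 62.5, 68.2 and 69.7 FPKM in Mettl3 livers, 55.8, 58.4 and 62.4 FPKM in ethanol-fed control livers, and 75.2, 70.8 and 79.8 FPKM in pair-fed livers. It fell, with a log2 fold change of -0.35 (SE 0.09, adjusted p = 0.025), and the call was lost without ethanol-fed control liver 2 (adjusted p = 0.0592) or without pair-fed liver 1, 2 or 3 (0.0806, 0.0673 and 0.1). Psmb6 did not pass on the median-ratio scale (-0.16, adjusted p = 0.325). Psmb7 had 86.02, 87.1 and 92.2 FPKM in Mettl3 livers, 84.97, 74.2 and 87.3 FPKM in ethanol-fed control livers, and 97.1, 93.9 and 110.0 FPKM in pair-fed livers, and Psmb5 had 58.4, 65.99 and 66.3 FPKM in Mettl3 livers, 60.2, 52.7 and 54.8 FPKM in ethanol-fed control livers, and 54.7, 57.03 and 62.1 FPKM in pair-fed livers. Psmb7 did not pass, with a log2 fold change of -0.29 (SE 0.11, adjusted p = 0.0735), although its ethanol-fed control libraries all lay below the pair-fed ones. Psmb5 overlapped between the groups, with a log2 fold change of -0.05 (SE 0.10, adjusted p = 0.7). The sum of the 3 constitutive subunits was 219 ± 10.7 FPKM in Mettl3 livers, 197 ± 10.2 FPKM in ethanol-fed control livers and 234 ± 16.1 FPKM in pair-fed livers (SD, n = 3 each).

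Among the immunoproteasome catalytic subunits Psmb10 fell furthest, and Psmb8 and Psmb9 did not pass. Psmb10 (Entrez 19171, chr8:105935728-105938392, GRCm38) had 12.6, 9.71 and 14.8 FPKM in Mettl3 livers, 13.3, 11.3 and 9.99 FPKM in ethanol-fed control livers, and 19.3, 17.8 and 18.98 FPKM in pair-fed livers. No ethanol-fed library of either virus reached the pair-fed range. The log2 fold change of ethanol-fed control over pair-fed livers was -0.66 (SE 0.12, adjusted p = 0.00647), and it was -0.49 (adjusted p = 0.00701) on the median-ratio scale. Psmb8 had 13.1, 11.9 and 15.8 FPKM in Mettl3 livers, 15.0, 14.4 and 11.5 FPKM in ethanol-fed control livers, and 17.3, 17.4 and 16.4 FPKM in pair-fed livers, and Psmb9 had 3.92, 3.07 and 6.32 FPKM in Mettl3 livers, 5.18, 6.14 and 4.57 FPKM in ethanol-fed control livers, and 7.43, 6.505 and 6.02 FPKM in pair-fed livers. These 2 genes lie near each other in the MHC region, at chr17:34198195-34201454 and chr17:34182030-34187330. Psmb8 had non-overlapping libraries and a log2 fold change of -0.31 (SE 0.12, adjusted p = 0.0726), and it passed without ethanol-fed control liver 1 (-0.38, adjusted p = 0.0292). Psmb9 overlapped between the groups, with a log2 fold change of -0.28 (SE 0.13, adjusted p = 0.115). The read counts behind these genes ranged from 146 for Psmb9 to 919 for Psmb10 per library. In bulk tissue, fewer cells of a type and less RNA per cell cannot be told apart.

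**Figure D3:**
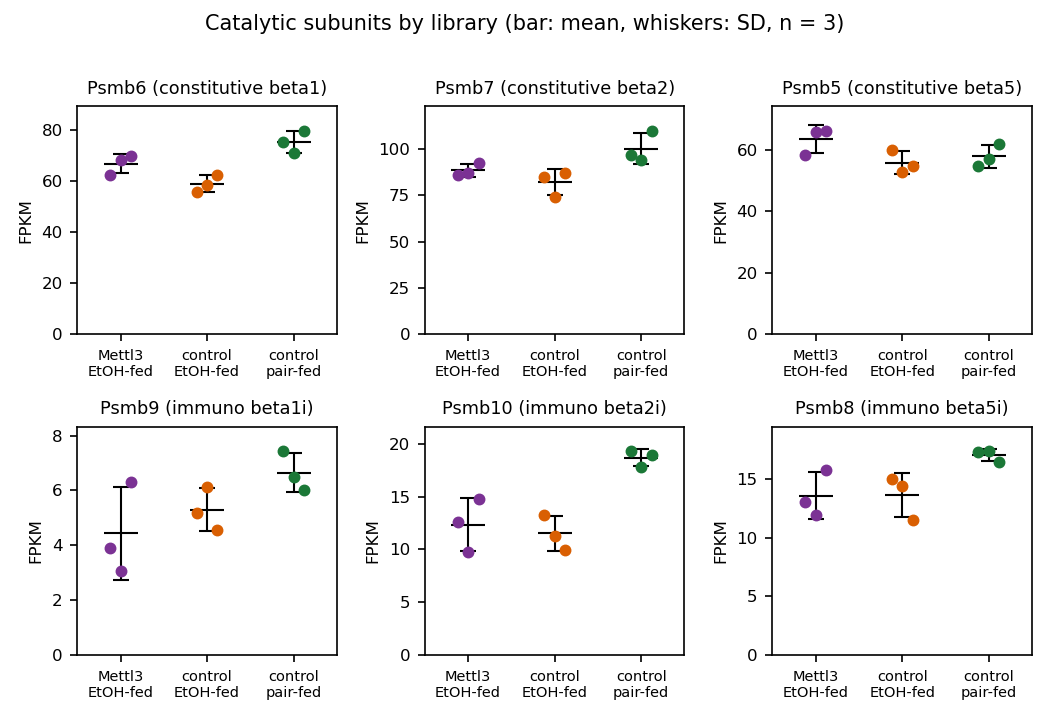
FPKM of the constitutive catalytic subunits (upper row) and their immunoproteasome counterparts (lower row) in each library, with the group mean (bar) and SD (whiskers, n = 3); every axis starts at 0. All ethanol-fed points of Psmb10 lie at or under 14.8 FPKM and all pair-fed points at or above 17.8 FPKM, while the groups of Psmb5 overlap.

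Set against each other, the immunoproteasome subunits took 12.5%, 10.0% and 13.9% of the summed FPKM of the 6 catalytic genes in Mettl3 livers, 14.3%, 14.6% and 11.3% in ethanol-fed control livers, and 16.2%, 15.8% and 14.1% in pair-fed livers. The Mettl3 libraries lay below the pair-fed ones, and the other pairs of groups overlapped. The mean log2(FPKM + 1) of Psmb8, Psmb9 and Psmb10 minus that of Psmb5, Psmb6 and Psmb7 is hardly touched by library scaling. It was -2.82, -3.17 and -2.61 in Mettl3 livers, -2.57, -2.49 and -2.89 in ethanol-fed control livers, and -2.35, -2.42 and -2.62 in pair-fed livers. The shift was -0.19 for ethanol-fed control minus pair-fed livers, -0.21 for Mettl3 minus ethanol-fed control livers and -0.40 for Mettl3 minus pair-fed livers, and the libraries overlapped in each of the 3 comparisons. No test was made on this difference, because it is a score over chosen members. It was lowest in Mettl3 liver 2 and ethanol-fed control liver 3. These libraries also had the lowest summed Kupffer cell markers of their groups. Among pair-fed livers it went the other way, since pair-fed liver 1 had the lowest Kupffer cell sum (311 FPKM) and the highest difference (-2.35). Pair by pair, Psmb10 stood at 13.9 ± 2.52% of Psmb7 in Mettl3 livers, 14.1 ± 2.32% in ethanol-fed control livers and 18.7 ± 1.32% in pair-fed livers. Psmb8 stood at 21.4 ± 3.01% of Psmb5 in Mettl3 livers, 24.4 ± 3.18% in ethanol-fed control livers and 29.5 ± 2.68% in pair-fed livers. Psmb9 stood at 6.61 ± 2.30%, 9.04 ± 1.60% and 8.87 ± 1.20% of Psmb6 in the Mettl3, ethanol-fed control and pair-fed groups (SD, n = 3 each). Between ethanol-fed control and pair-fed livers, the libraries of the Psmb10 to Psmb7 pair did not overlap. Those of the Psmb8 to Psmb5 pair and of the Psmb9 to Psmb6 pair did.

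The interferon-inducible activator caps fell together. Psme1 and Psme2 encode the alternating subunits of PA28, a ring that opens the core and is linked to peptide supply for MHC class I. Psme1 (Entrez 19186, chr14:55578494-55581527, GRCm38) had 33.6, 33.9 and 41.2 FPKM in Mettl3 livers, 42.1, 45.9 and 37.8 FPKM in ethanol-fed control livers, and 67.9, 64.99 and 60.1 FPKM in pair-fed livers. The ethanol-fed libraries of both viruses lay at or under 45.9 FPKM and the pair-fed ones at or above 60.1 FPKM. Under ethanol the log2 fold change was -0.61 (SE 0.10, adjusted p = 0.00584), and it was -0.42 (adjusted p = 0.0161) on the median-ratio scale. Psme2 had 27.9, 29.2 and 30.7 FPKM in Mettl3 livers, 32.3, 28.3 and 28.6 FPKM in ethanol-fed control livers, and 39.6, 37.1 and 41.9 FPKM in pair-fed livers, with a log2 fold change of -0.40 (SE 0.10, adjusted p = 0.0191), and Psme2b had 10.4, 9.95 and 10.3 FPKM in Mettl3 livers, 10.2, 10.7 and 10.7 FPKM in ethanol-fed control livers, and 16.2, 14.6 and 14.4 FPKM in pair-fed livers, with a log2 fold change of -0.48 (SE 0.09, adjusted p = 0.00838). Neither overlapped between ethanol-fed control and pair-fed livers, and neither passed on the median-ratio scale (adjusted p = 0.1 and 0.0564). Psme2 and Psme2b are near-identical copies, so the split of reads between them is uncertain. Psme2 kept its call only without ethanol-fed control liver 1, and its adjusted p lay between 0.0503 and 0.0828 in the other 5 fits. Psme3, the nuclear relative of PA28 that is not induced by interferon, went the other way, with 14.96, 15.9 and 14.7 FPKM in Mettl3 livers, 14.2, 14.9 and 12.9 FPKM in ethanol-fed control livers, and 11.7, 11.4 and 11.4 FPKM in pair-fed livers. It lay higher in every ethanol-fed control liver than in any pair-fed liver, and passed after median-ratio scaling (0.44, adjusted p = 0.00912) but not on the FPKM scale with all 6 libraries (0.26, SE 0.09, adjusted p = 0.0617). Psme4, the PA200 cap known from DNA repair and sperm, did not pass, with a log2 fold change of -0.20 (SE 0.11, adjusted p = 0.172).

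None of the 6 ATPases of the 19S cap, the unfolding motor, was called under ethanol on the FPKM scale. Of the 6, 4 lay above 0, and their median log2 fold change was 0.09. Over all genes 10.0% rose, 26.0% fell and 35.3% lay above 0. Psmc4 had 55.1, 52.0 and 51.4 FPKM in Mettl3 livers, 44.6, 46.2 and 44.4 FPKM in ethanol-fed control livers, and 39.97, 37.96 and 38.0 FPKM in pair-fed livers, and Psmc5 had 47.0, 45.03 and 45.5 FPKM in Mettl3 livers, 41.98, 45.7 and 36.7 FPKM in ethanol-fed control livers, and 35.6, 30.2 and 37.3 FPKM in pair-fed livers. Psmc4 did not overlap between ethanol-fed control and pair-fed livers, and Psmc5 did, with log2 fold changes of 0.22 (SE 0.08, adjusted p = 0.0753) and 0.26 (SE 0.12, adjusted p = 0.129). After median-ratio scaling both rose, by 0.40 (adjusted p = 0.0171) and 0.45 (adjusted p = 0.0252). Psmc1, Psmc2, Psmc3 and Psmc6 lay at 0.03, 0.15, -0.04 and -0.15 and did not pass on either scale.

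Of the 11 non-ATPase subunits 2 fell on the FPKM scale, against 26.0% of all genes, 9 were not called, and the median was -0.04. Psmd3, a scaffold of the lid, had 29.8, 34.2 and 32.8 FPKM in Mettl3 livers, 28.96, 29.96 and 28.2 FPKM in ethanol-fed control livers, and 36.3, 35.1 and 36.05 FPKM in pair-fed livers, with a log2 fold change of -0.29 (SE 0.08, adjusted p = 0.0299). Psmd11, a lid subunit that braces the cap against the core, had 24.2, 25.8 and 25.8 FPKM in Mettl3 livers, 23.1, 24.3 and 23.3 FPKM in ethanol-fed control livers, and 28.8, 27.02 and 30.6 FPKM in pair-fed livers, with a log2 fold change of -0.28 (SE 0.09, adjusted p = 0.0465). Neither overlapped between the groups. On the median-ratio scale neither passed, with -0.11 (adjusted p = 0.35) for Psmd3 and -0.10 (adjusted p = 0.487) for Psmd11. Psmd11 was called in none of the 6 fits that left out a library (adjusted p of 0.0512 to 0.167), and Psmd3 only in the one without ethanol-fed control liver 1 (0.0508 to 0.107 in the others). Psmd8, a late-joining lid subunit, had 79.2, 72.9 and 70.4 FPKM in Mettl3 livers, 75.02, 62.9 and 76.7 FPKM in ethanol-fed control livers, and 59.0, 56.9 and 57.1 FPKM in pair-fed livers. It lay higher in every ethanol-fed control liver and rose after median-ratio scaling (0.48, adjusted p = 0.0202), with 0.30 (SE 0.10, adjusted p = 0.0564) on the FPKM scale. The ubiquitin receptor Psmd4 and the base scaffolds Psmd1 and Psmd2 did not pass, with log2 fold changes of -0.19, -0.15 and -0.04.

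Within a library, the ATPases can be set against the alpha ring without regard to library scaling. The mean log2(FPKM + 1) of the 6 ATPases minus that of the 7 alpha subunits was 0.18, 0.09 and 0.13 in Mettl3 livers, 0.12, 0.16 and 0.05 in ethanol-fed control livers, and -0.18, -0.22 and -0.22 in pair-fed livers. The group means were 0.13 ± 0.05, 0.11 ± 0.06 and -0.21 ± 0.02 for the Mettl3, ethanol-fed control and pair-fed groups (SD, n = 3 each). All 6 ethanol-fed libraries were positive and all 3 pair-fed libraries negative, and the ethanol-fed groups overlapped. This difference was chosen after its values were seen and carries no test.

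**Figure D4:**
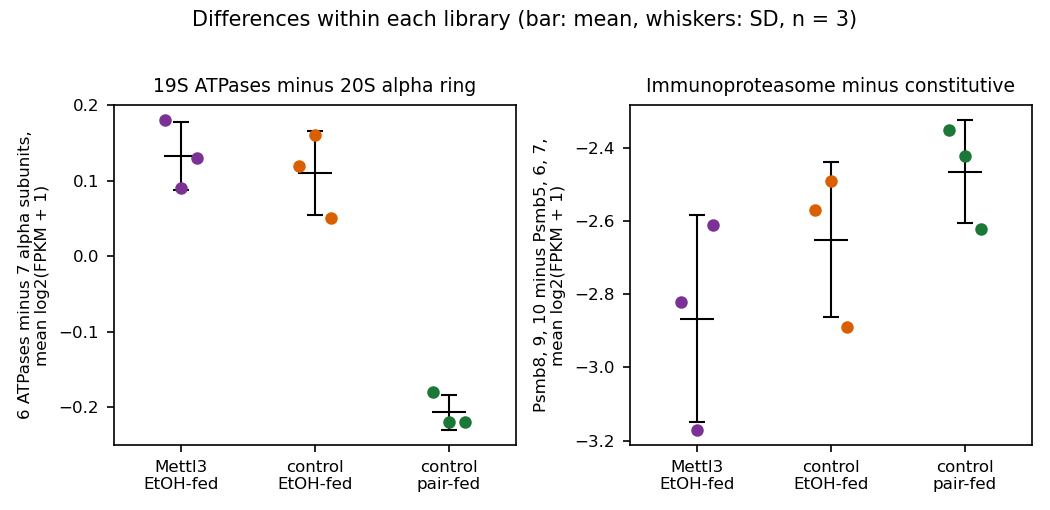
Differences within each library: mean log2(FPKM + 1) of the 6 ATPases minus the 7 alpha subunits (left) and of Psmb8, Psmb9 and Psmb10 minus Psmb5, Psmb6 and Psmb7 (right), by group, with mean (bar) and SD (whiskers, n = 3). On the left all ethanol-fed libraries are above 0 and all pair-fed ones below, and on the right the groups overlap.

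None of the assembly and regulatory members was called under ethanol. Pomp had 103, 103 and 104 FPKM in Mettl3 livers, 106, 93.3 and 102 FPKM in ethanol-fed control livers, and 101, 92.8 and 96.4 FPKM in pair-fed livers, with overlapping groups and a log2 fold change of 0.05 (SE 0.09, adjusted p = 0.702) under ethanol. The 19S assembly chaperones Psmd5, Psmd9 and Psmd10 were not called, with a median log2 fold change of -0.11, and Psmd9 lay at 12.6 ± 1.73 FPKM in ethanol-fed control livers and 12.6 ± 0.637 FPKM in pair-fed livers (SD, n = 3 each). Psmd5 passed as lower without ethanol-fed control liver 1 (-0.27, adjusted p = 0.0419). The inhibitor Psmf1 lay lower in every ethanol-fed control liver than in any pair-fed liver, without passing (-0.19, adjusted p = 0.182).

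The Mettl3 virus was compared with the control virus among the ethanol-fed mice. No member passed the adjusted threshold with limma, on either scale. Of all 9706 genes tested, 0.0103% rose and 0.00% fell, the only gene called being Mettl3 itself (log2 fold change 2.54, SE 0.19, adjusted p = 0.0257). At an unadjusted p under 0.05 stood 2 of the 44 members, against 7.45% of all genes. limma-voom on the recovered reads called no member either, and in the authors' deposited table the lowest q-value of a member was 0.521, with 0.103% of its genes higher and 0.510% lower. The direction was shared by most members: 36 of 44 (81.8%) lay above 0, against 41.1% of all genes, with a median log2 fold change of 0.11 over members and -0.04 over all genes. All 31 subunits of the core and the 19S cap, the immunoproteasome ones not counted, lay above 0, with a median of 0.13. Without ethanol-fed control liver 2 the number was 30, and it was 31 under every other setting tried. After median-ratio scaling their median was 0.21, and 54.8% of all genes lay above 0, with a median of 0.02. This count was added after the values were seen. Subunit genes share the libraries they are measured in, so they are not independent of each other and the count carries no test.

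**Figure D5:**
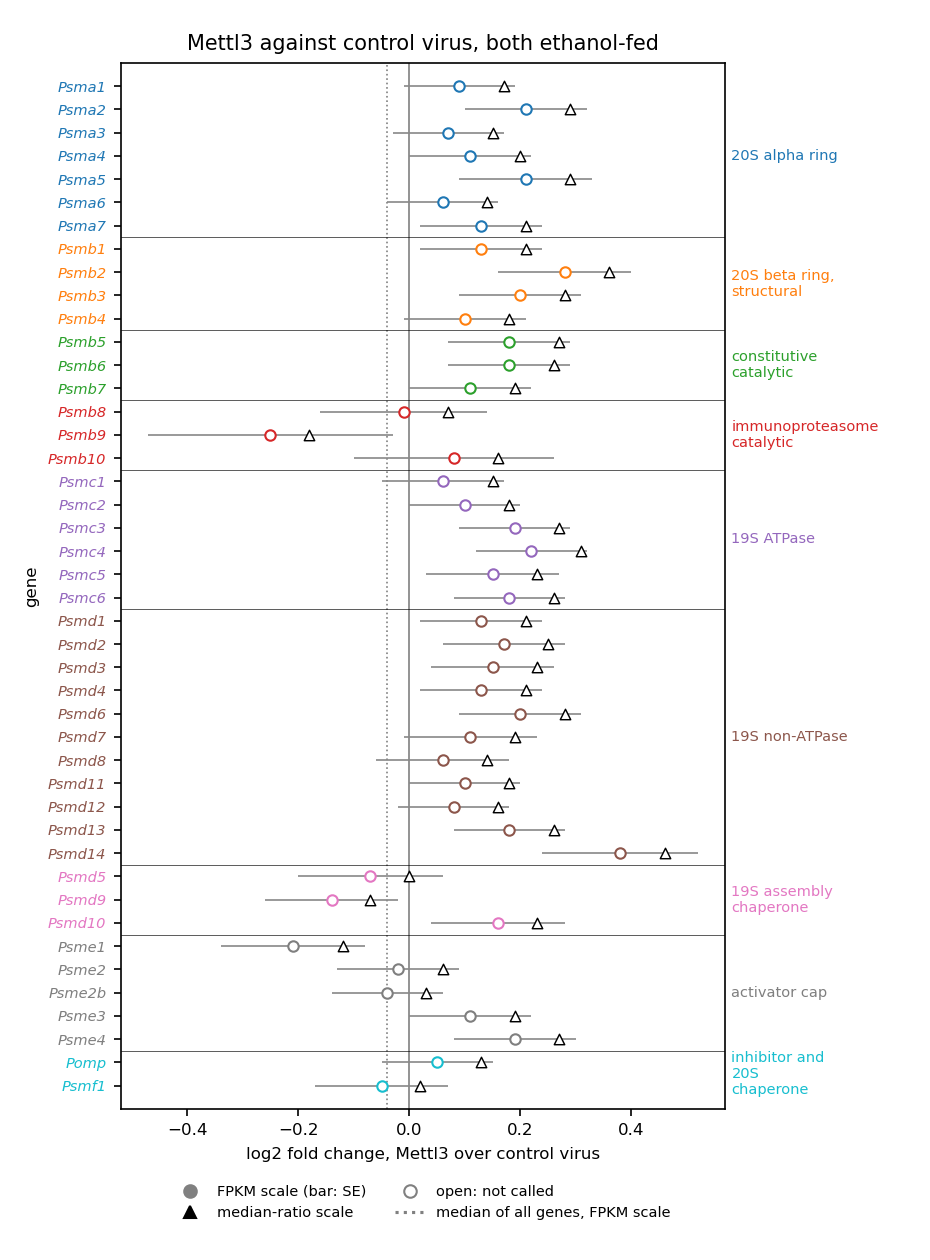
log2 fold change of each member, Mettl3 over control virus in ethanol-fed livers, with its SE on the FPKM scale (circles) and after median-ratio scaling (triangles); no symbol is filled, since none passed, and the dotted line is the median of all genes on the FPKM scale. All core and 19S genes lie right of 0, while Psmb9, Psme1 and Psmd9 lie left of it.

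The members nearest to the threshold were 19S and core genes. Psmd14, the deubiquitinase that removes ubiquitin chains at the cap, had 32.9, 35.8 and 27.1 FPKM in Mettl3 livers, 22.4, 24.1 and 26.2 FPKM in ethanol-fed control livers, and 22.7, 22.7 and 21.4 FPKM in pair-fed livers. The Mettl3 libraries all lay above the ethanol-fed control ones, with a log2 fold change of 0.38 (SE 0.14, adjusted p = 0.641) and an unadjusted p of 0.0289. Psmb2, a structural beta subunit, had 58.3, 67.5 and 55.6 FPKM in Mettl3 livers, 48.1, 51.3 and 49.3 FPKM in ethanol-fed control livers, and 51.3, 49.1 and 48.9 FPKM in pair-fed livers, again without overlap, with a log2 fold change of 0.28 (SE 0.12, adjusted p = 0.641) and an unadjusted p of 0.0479. In all, every Mettl3 liver lay above every ethanol-fed control liver for 14 members (31.8%, against 6.17% of all genes) and below for 1, Psmd9 (2.27%, against 6.62% of all genes). Among the members outside the core and the 19S cap, Psmb9 lay at -0.25 (SE 0.22, adjusted p = 0.735), Psme1 at -0.21 (SE 0.13, adjusted p = 0.674) and Psmd9 at -0.14 (SE 0.12, adjusted p = 0.722), none of them called.

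Mettl3 livers were also set against pair-fed livers, with all 9 libraries in the fit. This comparison shares libraries with both others, and it combines virus and diet, which cannot be told apart in it. Here 7 members rose (15.9%, against 13.9% of the 10229 genes tested) and 4 fell (9.09%, against 34.9%), with a median log2 fold change of -0.06 over members and -0.18 over all genes. After median-ratio scaling, which moved the median of all genes to 0.03, 16 rose (36.4%, against 25.3%) and 3 fell (6.82%, against 21.6%). Every Mettl3 liver lay above every pair-fed liver for 14 members (31.8%, against 19.3% of all genes) and below for 14 (31.8%, against 44.2%). The members that fell were Psme1 at -0.81 (SE 0.12, adjusted p = 0.00121), Psmb10 at -0.58 (SE 0.15, adjusted p = 0.0127), Psme2b at -0.52 (SE 0.08, adjusted p = 0.00187) and Psme2 at -0.42 (SE 0.09, adjusted p = 0.00665), and all but Psme2 also fell on the median-ratio scale. These 4 genes had fallen in ethanol-fed control livers as well, which share the pair-fed libraries. The members that rose came from the 19S cap, the Psme3 cap and 1 beta subunit. They were Psmd14 at 0.49 (SE 0.12, adjusted p = 0.00827), Psmc4 at 0.44 (SE 0.08, adjusted p = 0.00301), Psmc5 at 0.41 (SE 0.11, adjusted p = 0.0159), Psme3 at 0.38 (SE 0.09, adjusted p = 0.00794), Psmd8 at 0.36 (SE 0.10, adjusted p = 0.0185), Psmb2 at 0.27 (SE 0.10, adjusted p = 0.0417) and Psmd13 at 0.26 (SE 0.08, adjusted p = 0.0283). Psmd13, a lid subunit, had 31.7, 31.4 and 30.6 FPKM in Mettl3 livers, 28.9, 26.2 and 27.6 FPKM in ethanol-fed control livers, and 25.8, 27.1 and 24.6 FPKM in pair-fed livers, with all Mettl3 livers above all pair-fed livers. Leaving out a library moved these counts too. The number that rose was 3 without Mettl3 liver 1, 3 without pair-fed liver 2 and 4 without pair-fed liver 3. The number that fell was 8 without Mettl3 liver 3, when Psmb8, Psmb9, Psmd5 and Psmf1 joined (log2 fold changes of -0.42, -0.77, -0.36 and -0.33), and that library had the highest Psmb8, Psmb9 and Psmb10 of its group. Psmb8 also passed without ethanol-fed control liver 3 (-0.32, adjusted p = 0.0433). Psmc4, Psmd14, Psme3 and the 4 members that fell were called in all 9 fits that left out a library. Psmc5 was lost without Mettl3 liver 1 (0.0541) or pair-fed liver 2 (0.0688), and Psmd8 without Mettl3 liver 1 or pair-fed liver 2 or 3 (adjusted p of 0.0585 to 0.0718). Psmd13 was lost without Mettl3 liver 1 or 2 or any pair-fed liver (0.054 to 0.103). Psmb2 was lost in 7 of 9 fits, all but those without Mettl3 liver 3 or ethanol-fed control liver 1 (0.0519 to 0.158).

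Genes that work with the proteasome were read from lists chosen with earlier results of these data known. Of 21 other proteasome factors, 0 rose and 4 fell in ethanol-fed control against pair-fed livers on the FPKM scale, with a median of -0.13, and 2 rose and 2 fell on the median-ratio scale. Over all genes 10.0% rose and 26.0% fell on the FPKM scale, and 17.6% rose and 16.7% fell on the median-ratio scale. Zfand5, which binds the proteasome and stimulates it, had 3.16, 3.59 and 3.48 FPKM in Mettl3 livers, 4.87, 4.02 and 3.70 FPKM in ethanol-fed control livers, and 7.08, 7.71 and 8.01 FPKM in pair-fed livers. It fell, with a log2 fold change of -0.73 (SE 0.11, adjusted p = 0.00422), and the pair-fed libraries lay above all others. The shuttle receptor Ubqln4 fell by 0.51 (SE 0.11, adjusted p = 0.0135), the 20S assembly chaperone Psmg1 by 0.37 (SE 0.10, adjusted p = 0.0305) and the 19S-bound deubiquitinase Uchl5 by 0.30 (SE 0.10, adjusted p = 0.0461). Rps27a, which encodes ubiquitin fused to a ribosomal protein, fell, at -0.45 (SE 0.11, adjusted p = 0.0213). None of the Rps27a, Psmg1 and Uchl5 calls held on the median-ratio scale. Zfand5 passed in all 6 fits that left out a library, and Ubqln4 in all but those without pair-fed liver 2 or 3 (adjusted p of 0.0545 to 0.0637). Psmg1, Uchl5 and Rps27a were lost without any library but ethanol-fed control liver 1 (0.0535 to 0.166). In the list of 9 genes around NRF1, the factor that drives proteasome genes when the proteasome is inhibited, 1 rose and 0 fell. That gene was Syvn1, an E3 ligase of the endoplasmic reticulum, with 185, 207 and 57.3 FPKM in Mettl3 livers, 22.7, 138 and 80.7 FPKM in ethanol-fed control livers, and 12.9, 10.9 and 10.99 FPKM in pair-fed livers and a log2 fold change of 2.36 (SE 0.57, adjusted p = 0.0181). Its ethanol-fed values were widely spread but all above the pair-fed ones, and the call was lost without ethanol-fed control liver 3 or any pair-fed liver (adjusted p of 0.0551 to 0.0873). Nfe2l1, which encodes NRF1, averaged 20.4 ± 4.65 FPKM in ethanol-fed control livers and 27.7 ± 1.83 FPKM in pair-fed livers (SD, n = 3 each) and did not pass (-0.44 (SE 0.16, adjusted p = 0.0714)).

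Of the 12 genes of MHC class I presentation, which uses proteasome peptides, 1 rose and 3 fell under ethanol, a share near the 26.0% of all genes that fell, and 1 rose and 1 fell on the median-ratio scale. Tapbp (tapasin) fell, at -0.53 (SE 0.10, adjusted p = 0.00722), as did the peptide-trimming Erap1 at -0.43 (SE 0.09, adjusted p = 0.0122) and the class I light chain B2m at -0.38 (SE 0.12, adjusted p = 0.0443), and the chaperone Calr rose, at 0.86 (SE 0.27, adjusted p = 0.041). Of the 3 that fell, Tapbp held its call on the median-ratio scale and in all 6 fits that left out a library. Erap1 was lost without pair-fed liver 2 or 3 (0.0602 to 0.0638), and B2m and Calr without any library but ethanol-fed control liver 1 (0.0693 to 0.145). The list of interferon signalling genes had 15 tested, of which 0 rose and 4 fell, again near the 26.0% of all genes, with a median log2 fold change of -0.27. On the median-ratio scale 2 rose and 3 fell, with a median of -0.10. Irf1, the transcription factor that induces immunoproteasome genes, had 5.14, 6.32 and 8.004 FPKM in Mettl3 livers, 6.16, 7.68 and 5.704 FPKM in ethanol-fed control livers, and 14.1, 10.4 and 11.7 FPKM in pair-fed livers. It fell, at -0.80 (SE 0.15, adjusted p = 0.00708), with no overlap between ethanol-fed and pair-fed libraries, as did the kinase gene Jak2 (-0.45 (SE 0.09, adjusted p = 0.0109)), the receptor gene Ifnar2 (-0.37 (SE 0.09, adjusted p = 0.0171)) and Gbp7, an interferon-induced GTPase (-0.71 (SE 0.18, adjusted p = 0.0226)). Irf1, Jak2 and Gbp7 held on the median-ratio scale. Irf1 passed in all 6 fits that left out a library, and Jak2 in all but that without pair-fed liver 3 (0.0545). Ifnar2 was lost without any pair-fed liver (0.0648 to 0.0734), and Gbp7 without ethanol-fed control liver 2 or 3 or pair-fed liver 1 or 2 (0.0576 to 0.0771).

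Between the viruses no gene named from these lists passed the adjusted threshold. In Mettl3 against pair-fed livers the other proteasome factors had 2 higher and 5 lower of 21 on the FPKM scale and 7 higher and 1 lower on the median-ratio scale. Over all genes 13.9% rose and 34.9% fell on the FPKM scale, and 25.3% rose and 21.6% fell on the median-ratio scale. Among those called on the FPKM scale were Zfand5 at -0.96 (SE 0.11, adjusted p = 0.000531), Ubqln4 at -0.45 (SE 0.11, adjusted p = 0.00828), and Txnl1, a thioredoxin-like protein of the 19S cap, at 0.53 (SE 0.12, adjusted p = 0.00732). The NRF1 list had 3 higher and 3 lower of 9 (3 and 1 on the median-ratio scale), with Syvn1 at 3.38 (SE 0.64, adjusted p = 0.00344), Nfe2l2 at -1.01 (SE 0.22, adjusted p = 0.00612) and Nfe2l1 at -0.61 (SE 0.15, adjusted p = 0.0111). Only 1 gene of this list was lower on the median-ratio scale, so the falls of Nfe2l2 and Nfe2l1 did not both hold there. Nfe2l2, which encodes NRF2, had 10.2, 10.7 and 15.3 FPKM in Mettl3 livers, 28.8, 24.1 and 15.2 FPKM in ethanol-fed control livers, and 24.04, 25.9 and 24.7 FPKM in pair-fed livers. Its Mettl3 libraries lay below all pair-fed libraries. The class I list had 2 higher and 5 lower of 12 (3 and 2 on the median-ratio scale), and the interferon list 1 higher and 8 lower of 15 (2 and 6).

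Markers of other liver cells also differed between the diets, in both directions. In ethanol-fed control against pair-fed livers, 26.0% of all genes fell and 10.0% rose on the FPKM scale. After median-ratio scaling 16.7% of all genes fell and 17.6% rose. Of the 10 hepatocyte markers, 3 rose (Tat, Cps1 and Fgb) and 1 fell (Apoa2), against 3 higher and 0 lower on the median-ratio scale. Of 10 Kupffer cell markers, 0 rose and 8 fell in ethanol-fed control against pair-fed livers, and 7 fell on the median-ratio scale. They summed to 202, 150 and 263 FPKM in Mettl3 livers, 243, 251 and 170.0 FPKM in ethanol-fed control livers, and 311, 354 and 340 FPKM in pair-fed livers. Of 9 markers of sinusoidal endothelium 7 fell and 1 rose, against 4 lower and 2 higher on the median-ratio scale, with sums of 110.1 to 131 FPKM in Mettl3 livers, 104 to 117 FPKM in ethanol-fed control livers and 143 to 160.0 FPKM in pair-fed livers. The 7 monocyte and macrophage markers summed to 43.4 to 74.0 FPKM in Mettl3 livers, 41.8 to 69.2 FPKM in ethanol-fed control livers and 82.1 to 102 FPKM in pair-fed livers, with 1 of them, Lyz2, tested and lower. Lyz2 made up most of each sum. From pair-fed to ethanol-fed control livers the means of Itgam and Chil3 lay higher, and those of Ccr2, Ly6c2, Cx3cr1 and Spn lower. Lymphocyte markers were scarce. The 10 T and NK cell markers summed to 1.97 to 3.68 FPKM in Mettl3 livers, 2.03 to 3.86 FPKM in ethanol-fed control livers and 4.51 to 5.89 FPKM in pair-fed livers. The 6 B and plasma cell markers summed to 1.51 to 2.94 FPKM in Mettl3 livers, 1.52 to 2.54 FPKM in ethanol-fed control livers and 4.33 to 7.00 FPKM in pair-fed livers. The 7 dendritic cell markers reached at most 3.96 FPKM in any library. The 8 stellate cell markers had 2 lower of 7 tested on the FPKM scale, near the share of all genes, and 0 called on the median-ratio scale. Of the 8 neutrophil markers, 4 were tested and 1 was higher on both scales. The neutrophil markers summed to 49.6 to 108 FPKM in Mettl3 livers, 9.36 to 75.8 FPKM in ethanol-fed control livers and 7.50 to 11.7 FPKM in pair-fed livers. No marker of these lists was at 0 in every library of a group, apart from 1 neutrophil marker in pair-fed livers. In Mettl3 against pair-fed livers 9 of 10 Kupffer cell markers fell (6 on the median-ratio scale, where 1 rose) and 5 of 6 tested neutrophil markers rose (6 on the median-ratio scale). Of the 10 hepatocyte markers 3 rose and 2 fell there, and of 2 tested monocyte and macrophage markers 1 rose and 1 fell, with the same counts on the median-ratio scale. Of all genes in that comparison, 34.9% fell and 13.9% rose (21.6% and 25.3% on the median-ratio scale). Between the viruses none of the marker genes was called. The part of these cells in the immunoproteasome and PA28 values was not tested.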

How the data were processed

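Total RNA of 9 mouse liver libraries, 3 groups of 3, was sequenced, and groups were taken from the sample titles. Per the submitters' processing notes, fastp, HISAT2 and HTSeq were used with build mm10; versions and the strand setting are not given in the sources used here, so reads of overlapping genes (Psme1 and Emc9, for example) cannot be told apart. The authors deposited 2 tables, each with 2 groups, with an FPKM column for each library. A further signal column, per the file headers, averages size-factor-scaled counts over the libraries of a group. The deposited ratio (fold) and log2 fold change, and the deposited p-value and q-value, are the authors' own and were used only where named. Size factors and whole reads were recovered from these columns for 100.0% of genes within a tolerance of 0.05, giving 34656256 to 38159563 reads per library; the shared ethanol-fed columns differed by a relative 1.08e-06 at most.

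A gene was tested if 3 or more libraries of the fit reached 1 FPKM. The test was limma 3.58.1 in R 4.3.3 (linear fit, then empirical Bayes with the trend and robust options) on log2(FPKM + 1), so that fold changes of low genes are understated. P-values were adjusted by Benjamini-Hochberg over all genes of each fit, with a threshold of 0.05. The comparisons between diets and between viruses used their own 6 libraries, and Mettl3 against pair-fed livers used all 9. The alternatives were a pseudocount of 0.1, no filter, median-ratio scaling, limma-voom on recovered reads, a replicate block, the other set of libraries, and leaving out each library. A planned quasi-likelihood count test was not run, and limma-voom on the recovered reads was used in its place. Members and gene lists were chosen with earlier results of these data known. The list of ubiquitin genes is not reported here as a whole. Values per library are given for the catalytic subunits, Pomp, Psme1, Psme2 and each other member called in any comparison among the 5 of smallest p in its role, and, of the other lists, up to 4 called genes of smallest p; Psmd9 (mean), Nfe2l1 and Nfe2l2 were named besides. Gene positions and promoter windows are from RefSeq on GRCm38.p6.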

Additional observations from a re-analysis of the deposited data

How the results depend on the processing

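On the FPKM scale, the members lower in ethanol-fed control against pair-fed livers numbered 11, and 3 to 12 when a library was left out, 2 with median-ratio scaling and 3 with the replicate number as a block. Those higher numbered 0, and 0 to 1 when a library was left out, 4 with median-ratio scaling and 2 in the fit of 9 libraries. All genes called there numbered 3625, and 1538 to 4743 when a library was left out. For Mettl3 against control virus, genes called numbered 1, and 0 without the filter, 0 with the block, 3 in the fit of 9 libraries and 0 to 2 when a library was left out, while 0 members were called under every setting tried. For Mettl3 against pair-fed livers, members higher numbered 7, and 16 with median-ratio scaling and 3 to 7 when a library was left out, and members lower numbered 4, and 4 to 8 when a library was left out. No value that passed its test changed sign. The cause of these differences was not tested. The labels state no pairing of replicate numbers. Correlations of same-numbered libraries ranged from -0.412 to 0.394, and those of unlike-numbered libraries from -0.513 to 0.58. With 3 libraries per group these values cannot decide whether samples were paired. The shift of immunoproteasome against constitutive subunits kept its sign throughout, at -0.27 to -0.07, -0.34 to -0.06 and -0.53 to -0.25 when a library was left out, for ethanol-fed control against pair-fed, Mettl3 against ethanol-fed control, and Mettl3 against pair-fed livers. Each group had 3 libraries. Between the viruses, Psmd14 missed the adjusted threshold although its difference was well above its SE, at 0.38 (SE 0.14, adjusted p = 0.641 with limma). The reason was not tested. Psmb9, with as few as 146 reads in a library, is the least precise member tested.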
